A study of Mus musculus with 9 samples.

Results

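The growth hormone and insulin-like growth factor (IGF) axis genes described here are Ghr, Igf1, Igfals, Igfbp1, Igfbp2, Igfbp3, Socs2, Stat5b, Bcl6 and Cux2. A gene was taken when its symbol was in this list and its value was above 0 in at least 1 liver, which held for 10 of the 23183 gene symbols in the tables. Liver RNA was sequenced from 9 male C57BL/6J mice at post natal day 100, 1 mouse per library, with 3 mice in each of 3 groups and an 8 h fast before the tissue was taken. The ND group ate a normal diet with 14% fat for 10 weeks, and the HFD group ate a high-fat diet with 60% fat for the same 10 weeks. The PRF 50 group ate the high-fat diet for 10 weeks and was given PRF, a fraction of Jinkyool (Citrus sunki) leaf rich in polymethoxyflavones, at 50 mg/kg by mouth for the last 5 weeks. The ND and HFD groups were given no PRF. All values are deposited log2 values of FPKM, to which, as the authors state, geometric normalization was applied. They are read as log2(FPKM + 1), where FPKM is fragments per kilobase of transcript, scaled to the library's mapped fragments. On this scale a fold change understates the change of a gene with a low level.

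The livers carried hepatocyte transcripts at high levels, with Apoa1 between 12.69 and 13.50, Ttr between 11.97 and 12.84, Cps1 between 8.0 and 8.95 and Hnf4a between 6.55 and 7.15 on the log2 scale. Alb, the albumin gene, was listed at 0 in all 9 livers. Xist was at or below 0.01 and Ddx3y lay between 4.06 and 4.90, as in male tissue. The files give no read counts, so the depth of each library is unknown. Relative depth, read from the steps between low values, was 1 for HFD mouse 1, 1.161 for HFD mouse 2 and 1.597 for HFD mouse 3. The ND libraries had relative depths of 1.061 (mouse 6), 1.145 (mouse 7) and 1.113 (mouse 9). The PRF 50 libraries had 0.983 (mouse 3), 1.521 (mouse 9) and 0.969 (mouse 10). Between 14372 and 14980 genes were above 0 in each liver. Markers of tissue that could be cut along with liver were summed over 5 genes each. Exocrine pancreas markers, with Ctrb1 the most abundant, were at or below 0.326 FPKM. Adipocyte markers summed to 1.6, 6.89 and 14 FPKM in HFD mice 1, 2 and 3, to between 1.01 and 1.83 FPKM in the ND mice and to between 0.566 and 1.68 FPKM in the PRF 50 mice. The high sums came from Cfd, the most abundant, at 2.86 and 3.85 on the log2 scale in HFD mice 2 and 3, whereas Adrb3 was at 0.41 and 0.62 there and at 1.01 in HFD mouse 1, and Adipoq was at most 0.35. Prss2, Cpa1, Cela3b, Lep and Plin1 were listed at 0 in all livers, which, as for Alb, need not mean that the transcript was absent. Cholangiocyte and lymphocyte markers summed to at most 3.49 and 4.63 FPKM.

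The PRF 50 group was not uniform. Acute-phase transcripts, those of plasma proteins that the liver makes in inflammation, were high in PRF 50 mice 3 and 9 and not in PRF 50 mouse 10. All 20 acute-phase and IL-6 response genes of a list were in the tables, and Hpx was the most abundant of them with a mean of 3865 FPKM. Their summed level was 45146 FPKM in PRF 50 mouse 3 and 30394 FPKM in PRF 50 mouse 9, against 13153 FPKM in PRF 50 mouse 10. In the other 6 livers the sum lay between 11122 and 14980.2 FPKM. The serum amyloid gene Saa1 was at 12.46 and 11.51 in PRF 50 mice 3 and 9 and at 6.73 in PRF 50 mouse 10 on the log2 scale. Summed transcripts of 4 neutrophil marker genes followed the same split, at 54.2 and 17.6 FPKM in mice 3 and 9 and 3.24 FPKM in mouse 10, with S100a8 the most abundant. Ly6g, another neutrophil marker, was not among the table symbols. Results that rest on PRF 50 mice 3 and 9 are therefore given with and without them, and the part of the acute-phase split in those results was not tested.

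Growth hormone from the pituitary binds its receptor on hepatocytes, and the receptor's kinase JAK2 activates the transcription factor STAT5, of which STAT5B is the main form in liver. STAT5 turns on Igf1, whose product circulates bound to IGF-binding proteins and to the acid-labile subunit made from Igfals, and it turns on Socs2 and Cish, whose products dampen the receptor in turn. BCL6 is a repressor that binds many of the same DNA sites as STAT5 and is more abundant in male than in female mouse liver, while CUX2 is a repressor found in female liver.

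The 10 genes covered a wide range of transcript levels, compared here as FPKM, which is per transcript length. Ghr, the growth hormone receptor gene, had a mean of 301 FPKM over the 9 livers with a range of 264 to 344, and ranked 294 among all genes. Igfbp2 had a mean of 299 FPKM with a far wider range, from 103 to 664. Igf1 averaged 161 FPKM (range 139 to 192) and Igfals 42.1 FPKM (range 35.9 to 53.3). A lower tier held Igfbp1 at 11.4, Stat5b at 8.52, Igfbp3 at 8.05, Socs2 at 7.11 and Bcl6 at 6.79 FPKM. Within that tier, and between Ghr, Igfbp2 and Igf1, the ranges of neighbours in the order overlapped. The ranges of Igf1 and Igfals, of Igfals and Igfbp1, and of Bcl6 and Cux2 did not overlap. Cux2 was above 0 in all 9 livers but at 0.0142 to 0.0599 FPKM. Its log2 values lay between 0.02 and 0.08 and it was below the minimum of a mean of 1 FPKM, so 9 of the 10 genes were tested. Spread over the livers also differed. Bcl6 had the largest SD of the log2 values, 1.22, and its highest FPKM was 17.5 times its lowest. The SD was 0.78 for Igfbp2, 0.63 for Igfbp1, 0.62 for Socs2 and 0.33 for Igfbp3. Igf1 and Igfals had an SD of 0.17, Stat5b of 0.14 and Ghr of 0.13.

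**Figure D1:**
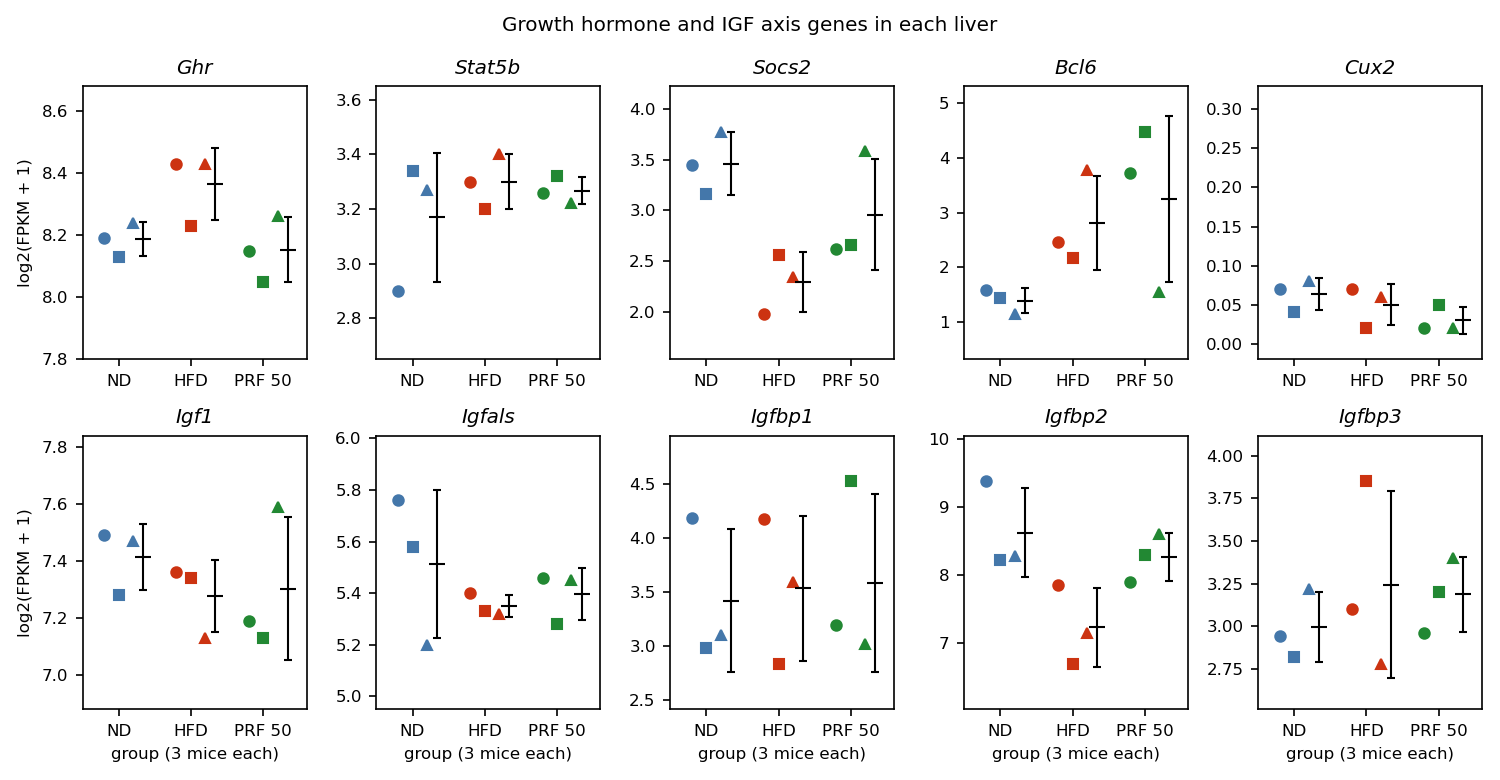
Deposited log2(FPKM + 1) of each of the 10 genes (vertical axes, each with its own range) in the ND, HFD and PRF 50 groups; each symbol is 1 mouse, the horizontal bar is the group mean and the whiskers are 1 SD (n = 3). The 3 Socs2 values of the HFD group lie between 1.98 and 2.56, below the ND values of 3.16 to 3.78, and the Bcl6 values of the PRF 50 group run from 1.55 to 4.48.

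Ghr and Stat5b, the receptor and the transcription factor it activates, had narrow values. Ghr was at 8.19, 8.13 and 8.24 in ND mice 6, 7 and 9, at 8.43, 8.23 and 8.43 in HFD mice 1, 2 and 3, and at 8.15, 8.05 and 8.26 in PRF 50 mice 3, 9 and 10. HFD mice 1 and 3 had the highest Ghr values, and HFD mouse 2 lay inside the range of the other groups. Stat5b lay between 2.90 and 3.40 in all 9 livers, with ND mouse 6 the lowest, and the 3 groups overlapped.

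Socs2 encodes a feedback inhibitor of growth hormone receptor signaling. It was at 3.45, 3.16 and 3.78 in ND mice 6, 7 and 9, and at 1.98, 2.56 and 2.34 in HFD mice 1, 2 and 3. In PRF 50 mice 3, 9 and 10 it was at 2.62, 2.66 and 3.59. All 3 HFD values were below all ND and all PRF 50 values, and within the PRF 50 group only mouse 10 lay inside the ND range. Cish, another feedback inhibitor of the same family, was at 4.23, 3.79 and 3.67 in the ND mice, at 2.34, 2.32 and 1.14 in the HFD mice, and at 1.85, 1.41 and 3.33 in PRF 50 mice 3, 9 and 10. PRF 50 mice 3 and 9 thus had Cish values inside the HFD range, and mouse 10 lay between the ND and HFD ranges.

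Bcl6 was at 1.59, 1.43 and 1.15 in ND mice 6, 7 and 9, and at 2.46, 2.17 and 3.78 in HFD mice 1, 2 and 3. In PRF 50 mice 3, 9 and 10 it was at 3.72, 4.48 and 1.55. All HFD values were above all ND values, PRF 50 mouse 9 had the highest value of the 9, and PRF 50 mouse 10 lay inside the ND range. The livers with the highest Bcl6 were HFD mouse 3 and PRF 50 mice 3 and 9, and the same 3 livers had the lowest Cish values, at 1.14, 1.85 and 1.41. Onecut1, which encodes the hepatocyte transcription factor HNF6, was at 1.76 and 1.98 in PRF 50 mice 3 and 9 and at 4.25 in mouse 10. Its values were 3.52, 3.53 and 4.64 in the ND mice and 2.06, 2.61 and 2.25 in the HFD mice. PRF 50 mouse 10 was thus inside the ND range for Bcl6, Socs2 and Onecut1, and PRF 50 mice 3 and 9 were inside it for none of these 3 genes.

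**Figure D2:**
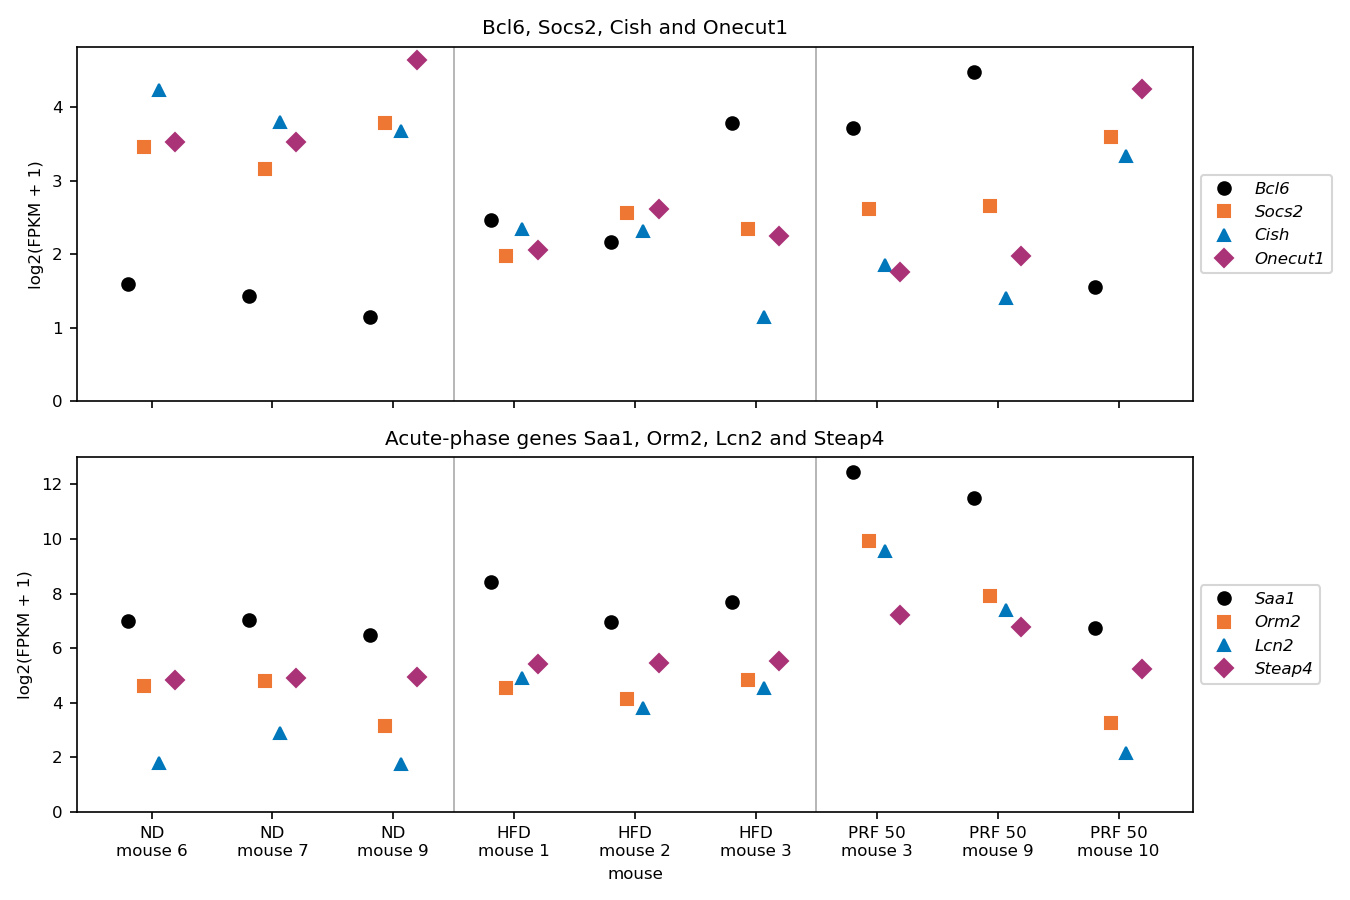
Deposited log2(FPKM + 1) (vertical axes) of Bcl6, Socs2, Cish and Onecut1 (upper panel) and of the acute-phase genes Saa1, Orm2, Lcn2 and Steap4 (lower panel) in each of the 9 mice (horizontal axis); each symbol is 1 gene in 1 liver. PRF 50 mice 3 and 9 have Bcl6 at 3.72 and 4.48 with Saa1 at 12.46 and 11.51, and PRF 50 mouse 10 has Bcl6 at 1.55 with Saa1 at 6.73.

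Igfbp2 had the widest spread of the 3 binding protein genes among the 10. It encodes a carrier that circulates with IGF and is known to be low in obesity. Its values were 9.38, 8.22 and 8.28 in ND mice 6, 7 and 9, then 7.85, 6.70 and 7.15 in HFD mice 1, 2 and 3, and 7.90, 8.30 and 8.61 in PRF 50 mice 3, 9 and 10. All HFD values were below all ND and PRF 50 values, although HFD mouse 1 was close to PRF 50 mouse 3, and ND mouse 6 had the highest value. Igf1, the ligand, lay between 7.13 and 7.59, and Igfals, its plasma partner, between 5.2 and 5.76, with the 3 groups overlapping for both. Igfbp1, a binding protein gene that insulin represses and fasting raises, lay between 2.84 and 4.52 with 1 high liver in each group, at 4.18 in ND mouse 6, 4.17 in HFD mouse 1 and 4.52 in PRF 50 mouse 9. Igfbp3, the main IGF carrier of plasma, lay between 2.78 and 3.85 and was highest in HFD mouse 2. Igfbp3 is made largely by non-parenchymal liver cells. Summed transcripts of 7 sinusoidal endothelial markers, with Clec4g the most abundant, were 53.8 FPKM in HFD mouse 2 and between 23.1 and 102 FPKM over the 9 livers. Summed transcripts of 7 Kupffer cell markers, with Cd5l the most abundant, were 319, 193 and 225 FPKM in the PRF 50 mice and between 43.8 and 114 FPKM in the other 6 livers. None of these markers was at 0 in all livers, and their part in the Igfbp3 values was not tested. In RNA from whole liver, fewer cells of a type and less RNA per cell cannot be told apart.

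The genes lie on several chromosomes of the mouse genome (GRCm38), and the only neighbours are Igfbp1 and Igfbp3. Igfbp1 spans chr11:7197782-7202546 on the plus strand and Igfbp3 chr11:7206086-7213923 on the minus strand. Bcl6 spans chr16:23965052-23988852 on the minus strand, Socs2 chr10:95385362-95417180 on the minus strand and Igfbp2 chr1:72824503-72852474 on the plus strand. For 8 of the 10 genes no stretch of 100 bases of the spliced transcripts occurred in another gene. For Stat5b, 4.79% of such stretches also occurred in Stat5a, and for Socs2, 2.31% also occurred in Gm9847. For Onecut1 the share was 51.7%, with Gm20649, a non-coding gene that overlaps it on the same strand, so its values may include fragments of that gene. Exons of Bcl6 share 21 bases with a gene on the opposite strand, and those of Cish share 479 bases with an antisense gene. Whether the counting of fragments used the strand is not stated in the sources used here.

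Promoters are shown for Bcl6, Igfals, Igfbp1 and Igfbp2, since Bcl6 and Igfbp2 varied most over the livers, Igfals is a known target of STAT5 and Igfbp1 of the insulin-regulated forkhead factors. Sequences are from RefSeq on GRCm38.p6, and 9 of the 10 genes had an entry; Socs2 had none. The 250 bases before each start were searched on both strands for TTCNNNGAA, the core that STAT5 and BCL6 bind, and for TGTTTT, a forkhead core, which reads AAAACA on the other strand. TTCNNNGAA was found before 4 of 16 starts, at position -118 from the first Bcl6 start, at positions -168, -122 and -88 from the second, and at positions -236 and -58 from the first and second Igfals starts. Of 32851 promoters of the same length, 7.02% hold it. TGTTTT was found before 2 of 16 starts, at position -107 of Igfbp1 and -141 of the second Stat5b start, and 19.8% of all promoters hold it. Neither was found before the first Igfbp2 start. Capitals mark the matches, which are a description of the letters only. The printed letters end at position -17 for the second Igfals start (234 bases) and at position -6 for Igfbp1 (245 bases). The other printed stretches end at position -1. The stretches are chr16:23988853-23989102 (minus strand, between genes) and chr16:23981284-23981533 (minus strand, in an intron of Bcl6) for Bcl6, chr17:24877981-24878214 (plus strand) for the second Igfals start, chr11:7197537-7197781 (plus strand) for Igfbp1 and chr1:72824230-72824479 (plus strand, between genes) for Igfbp2.
Bcl6 first start: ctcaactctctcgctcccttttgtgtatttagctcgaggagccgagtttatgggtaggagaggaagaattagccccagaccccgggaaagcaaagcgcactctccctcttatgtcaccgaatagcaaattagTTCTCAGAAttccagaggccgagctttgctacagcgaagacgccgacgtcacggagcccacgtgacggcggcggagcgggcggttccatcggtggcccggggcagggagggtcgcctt
Bcl6 second start: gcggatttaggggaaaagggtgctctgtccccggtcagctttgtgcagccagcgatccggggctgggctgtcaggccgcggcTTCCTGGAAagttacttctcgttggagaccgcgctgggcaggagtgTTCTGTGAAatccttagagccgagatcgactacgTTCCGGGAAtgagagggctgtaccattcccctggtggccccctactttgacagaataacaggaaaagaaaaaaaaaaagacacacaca
Igfals second start: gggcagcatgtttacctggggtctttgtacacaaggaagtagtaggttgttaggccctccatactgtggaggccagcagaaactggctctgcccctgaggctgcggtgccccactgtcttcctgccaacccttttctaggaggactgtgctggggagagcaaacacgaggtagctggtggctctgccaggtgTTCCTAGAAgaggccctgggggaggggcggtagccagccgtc
Igfbp1: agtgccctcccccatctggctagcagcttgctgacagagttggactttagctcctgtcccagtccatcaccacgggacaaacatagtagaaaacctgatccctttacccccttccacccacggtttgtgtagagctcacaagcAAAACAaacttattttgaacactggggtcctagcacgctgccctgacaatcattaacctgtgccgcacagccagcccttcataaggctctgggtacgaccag
Igfbp2 first start: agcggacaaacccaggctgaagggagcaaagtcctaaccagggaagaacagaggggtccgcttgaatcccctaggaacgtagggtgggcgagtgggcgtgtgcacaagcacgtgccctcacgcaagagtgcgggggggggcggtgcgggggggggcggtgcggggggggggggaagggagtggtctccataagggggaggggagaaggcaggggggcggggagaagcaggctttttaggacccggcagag

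The comparison of the HFD group with the ND group asks what the high-fat diet did to these genes. Socs2 fell under the high-fat diet, with a mean of 2.29 ± 0.29 (SD, n = 3) in the HFD group and 3.46 ± 0.31 in the ND group. Bcl6 was higher in each HFD liver than in each ND liver and Igfbp2 lower, but neither passed the test after adjustment. Ghr, Stat5b, Igf1, Igfals, Igfbp1 and Igfbp3 had overlapping groups and intervals that held 0. Of the 9 tested genes, 1 had an adjusted p under 0.05 (limma), Socs2, against 1.33% of the 9978 genes tested. The same test called 0.631% of all tested genes lower and 0.702% higher. An unadjusted p under 0.05 was reached by 3 of the 9 genes, Socs2, Bcl6 and Igfbp2, against 15.1% of all tested genes. The same 3 genes passed an unadjusted p under 0.05 with a fold above 2, a rule met by 1.34% of all tested genes. They were also the 3 genes whose groups did not overlap, which was so for 20.7% of all tested genes. The median difference over the 9 genes was 0.11, against -0.01 over all tested genes.

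Socs2 fell by 1.17 on the log2 scale (95% interval -1.62 to -0.72, SE 0.19, adjusted p = 0.0331), with all 3 HFD livers below all 3 ND livers. The difference kept its direction and size, between -1.32 and -1.02, when each mouse was left out, but the call did not hold. The adjusted p was 0.0618, 0.0588 and 0.116 without HFD mouse 1, 2 or 3, and 0.0892, 0.0579 and 0.0682 without ND mouse 6, 7 or 9. It was 0.0757 with all 9 mice in 1 fit and 0.102 with no minimum level. Cish fell by 1.96 on the log2 scale (SE 0.32, adjusted p = 0.0318), with no overlap between the groups. Its adjusted p was 0.0588 without HFD mouse 2 and 0.0914, 0.108 and 0.0601 without ND mouse 6, 7 or 9, and 0.0853 with all 9 mice in 1 fit.

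Bcl6 differed by 1.41 (95% interval 0.55 to 2.28, SE 0.37, adjusted p = 0.139), with means of 2.80 ± 0.85 in the HFD group and 1.39 ± 0.22 in the ND group. HFD mouse 3 carried part of the difference, which was 0.93 without it, below the fold of 2, and 1.73 without HFD mouse 2. With all 9 mice in 1 fit its SE was 0.66 and its unadjusted p 0.0573 (adjusted p = 0.336), so that it no longer counted among the genes at an unadjusted p under 0.05. Igfbp2 differed by -1.39 (95% interval -2.25 to -0.53, SE 0.37, adjusted p = 0.143), with means of 7.23 ± 0.58 and 8.63 ± 0.65. Leaving out 1 mouse gave Igfbp2 values between -1.70, without HFD mouse 1, and -1.02, without ND mouse 6. Onecut1 differed by -1.59 (SE 0.30, adjusted p = 0.0521), and it passed the test without ND mouse 9 (-1.22, adjusted p = 0.0307) and with a pseudocount of 0.1 (adjusted p = 0.0458). Its adjusted p over the left-out mice ran from 0.0307 to 0.185. Stat5a, the other STAT5 gene, differed by 0.61 (SE 0.14, adjusted p = 0.102).

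For the remaining genes the intervals bound the size of a difference. The interval of Ghr ran from -0.10 to 0.45 around a difference of 0.18, and that of Igf1 from -0.42 to 0.15 around -0.14. Igfals differed by -0.16 (95% interval -0.51 to 0.18) and Stat5b by 0.13 (95% interval -0.19 to 0.44). Igfbp1 and Igfbp3 had the widest intervals of these, from -0.80 to 1.02 and from -0.34 to 0.84. Jak2, the receptor's kinase, lay between 2.26 and 2.47 in all 9 livers. Igf2 and Igf1r, the other ligand and the IGF1 receptor, were at or below 0.39 and 0.31 and were not tested.

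**Figure D3:**
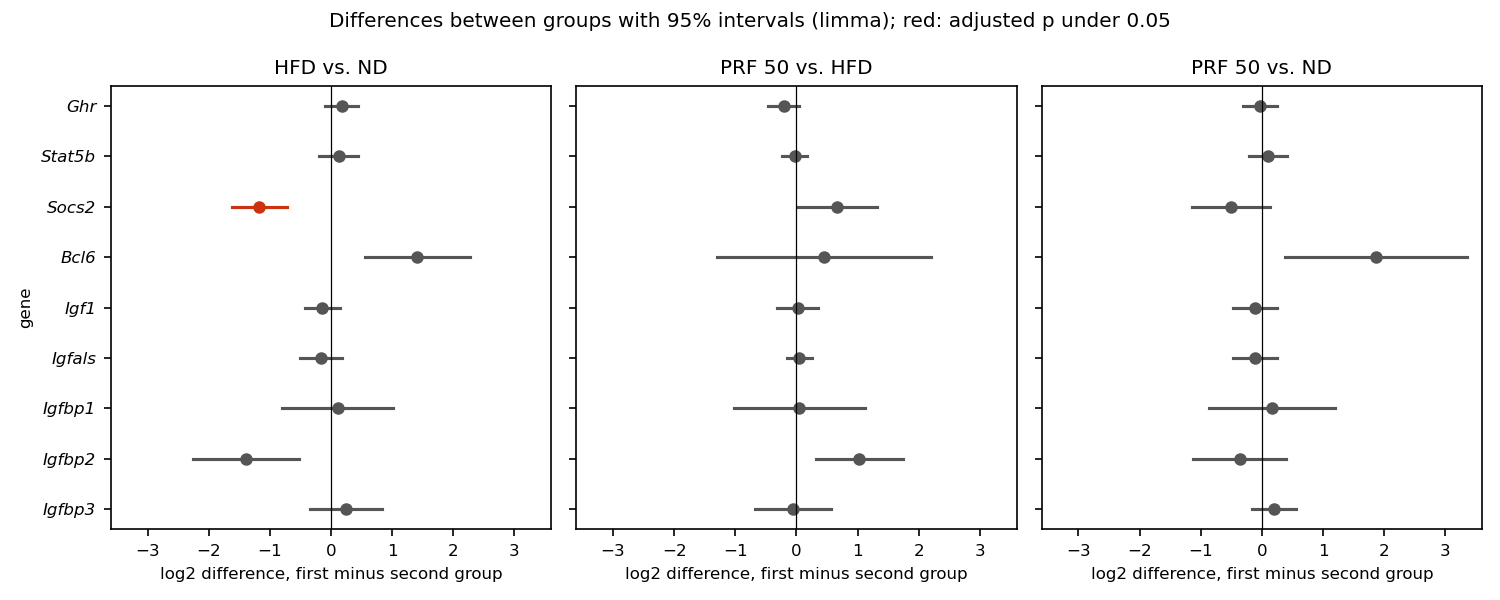
Difference in log2(FPKM + 1) between groups (horizontal axis, first group minus second) for the 9 tested genes in the 3 comparisons; points are limma estimates, bars are 95% intervals and red marks an adjusted p under 0.05. Socs2 in HFD vs. ND, at -1.17, is the 1 red point, and the interval of Bcl6 in PRF 50 vs. HFD runs from -1.30 to 2.20.

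The IGF-binding protein transcripts were compared as a family. Igfbp4, which encodes a binding protein that holds IGF away from its receptor, was the most abundant, at 652 to 938 FPKM. Igfbp2 made up 39.8%, 27.4% and 29.6% of the summed FPKM of Igfbp1 to Igfbp7 in ND mice 6, 7 and 9. In HFD mice 1, 2 and 3 it made up 18.6%, 11% and 14.1%, and in PRF 50 mice 3, 9 and 10 it made up 20.7%, 23.4% and 29.8%. The HFD shares were all below the ND shares and the PRF 50 shares, and the PRF 50 and ND shares overlapped. The mean share was 32.3% ± 6.63 for ND, 14.6% ± 3.82 for HFD and 24.7% ± 4.67 for PRF 50 livers (SD, n = 3). The difference was -17.7 percentage points for HFD vs. ND (2-sided exact permutation test, p = 0.1), 10.1 for PRF 50 vs. HFD (p = 0.1) and -7.64 for PRF 50 vs. ND (p = 0.3). With 20 arrangements of 3 mice against 3, 0.1 is the smallest p this test can give. The share of Igfbp4 ran the other way, with means of 61% ± 5.02 for ND, 77.6% ± 1.55 for HFD and 68.2% ± 5.99 for PRF 50 livers. Igfbp2 and Igfbp4 make up most of the sum, so a lower share of one raises the share of the other by arithmetic. The level of Igfbp4 itself differed by 0.11 in HFD vs. ND (adjusted p = 0.811), with overlapping groups. The summed level of the 7 transcripts averaged 1266 ± 347 FPKM for ND, 1057 ± 160 FPKM for HFD and 1264 ± 105 FPKM for PRF 50 livers, and the 3 groups overlapped. Igfbp7, expressed by endothelial and stellate cells, lay between 40.8 and 93.3 FPKM, and Igfbp1, Igfbp3, Igfbp5 and Igfbp6 each stayed at or below 21.9 FPKM.

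**Figure D4:**
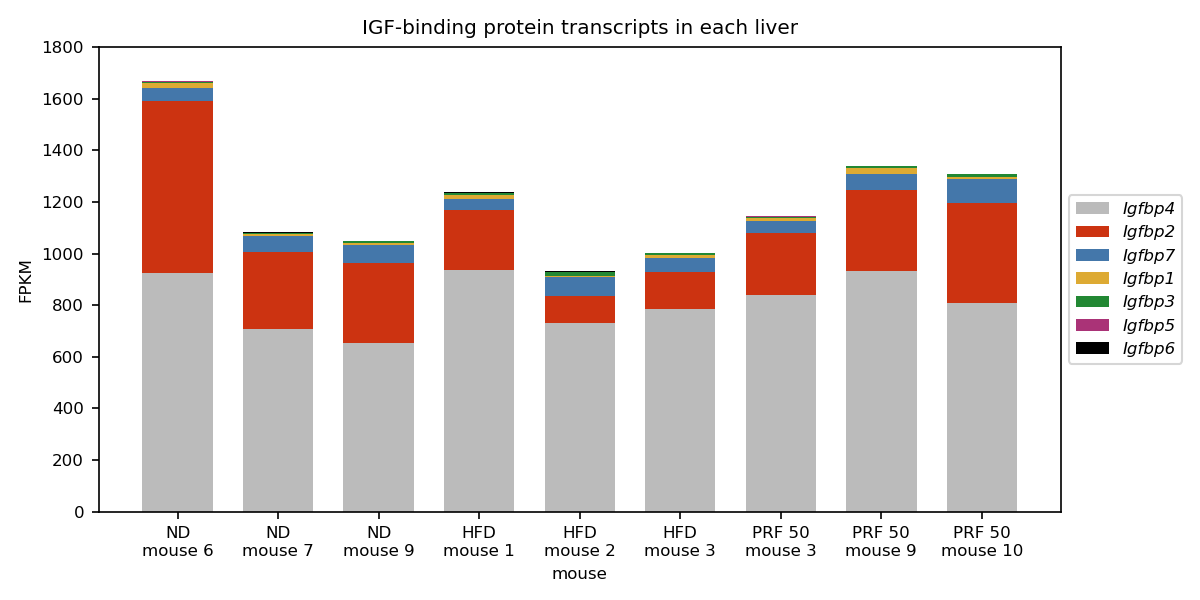
FPKM (vertical axis, from 0) of Igfbp1 to Igfbp7, stacked for each of the 9 mice (horizontal axis); each colour is 1 gene. The Igfbp2 part is 664 FPKM in ND mouse 6 and 103 FPKM in HFD mouse 2, while the Igfbp4 part stays between 652 and 938 FPKM.

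The comparison of the PRF 50 group with the HFD group asks what PRF did on the high-fat diet. Igfbp2 and Socs2 were higher in each PRF 50 liver than in each HFD liver, and neither passed the test after adjustment. Bcl6 was far from uniform, with PRF 50 mouse 9 above all HFD livers, mouse 3 just below the highest of them and mouse 10 below all of them. The remaining 6 tested genes had overlapping groups. Of the 9 tested genes 0 had an adjusted p under 0.05 (limma), against 3.59% of the 10084 genes tested. An unadjusted p under 0.05 was reached by 2 of the 9 genes, Igfbp2 and Socs2, against 20.2% of all tested genes. Igfbp2 was the 1 gene that also passed a fold of 2, against 2.1% of all tested genes. Igfbp2 and Socs2 were the 2 genes whose groups did not overlap, against 26.2% of all tested genes. The median difference over the 9 genes was 0.05, against -0.02 over all tested genes.

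Igfbp2 was at 8.27 ± 0.36 in the PRF 50 group and differed from the HFD group by 1.03 (95% interval 0.32 to 1.75, SE 0.30, adjusted p = 0.115). The difference was under the fold of 2 without HFD mouse 2, at 0.76, without HFD mouse 3, at 0.99, and without PRF 50 mouse 10, at 0.86. It was 1.34 without HFD mouse 1 (adjusted p = 0.0502), and 1.38 without PRF 50 mice 3 and 9. The adjusted p over the left-out mice ran from 0.0502 to 0.271. Socs2 was at 2.96 ± 0.55 and differed by 0.66 (95% interval 0.02 to 1.31, SE 0.28, adjusted p = 0.235). It rested largely on PRF 50 mouse 10, as it was 0.35 without that mouse and 1.30 with that mouse as the only PRF 50 liver (adjusted p = 0.143). Its unadjusted p was 0.144 and 0.0807 without HFD mouse 1 or 3 and 0.0932 without PRF 50 mouse 10, 0.0578 with quantile normalization and 0.0633 with no minimum level.

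Bcl6 was at 3.25 ± 1.52 in the PRF 50 group and differed from the HFD group by 0.45 (95% interval -1.30 to 2.20, SE 0.75, adjusted p = 0.791). Its sign turned without PRF 50 mouse 9, at -0.17, and stayed without any other single mouse. Without PRF 50 mouse 3 it was 0.21, and without PRF 50 mouse 10 it was 1.30, with an unadjusted p of 0.0349 and thus past the fold of 2. Leaving out HFD mice gave 0.28 without mouse 1, 0.13 without mouse 2 and 0.93 without mouse 3. Without PRF 50 mice 3 and 9 it was -1.25 (adjusted p = 0.453), which compares mouse 10 with the HFD group. Cish differed by 0.26 (adjusted p = 0.828), and by 1.39 without PRF 50 mice 3 and 9 (adjusted p = 0.313).

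Ghr differed by -0.21 (95% interval -0.47 to 0.05, adjusted p = 0.344). The intervals of Igf1, from -0.31 to 0.36, of Igfals, from -0.15 to 0.25, and of Stat5b, from -0.23 to 0.17, held 0 near their centre. Those of Igfbp1, from -1.02 to 1.12, and of Igfbp3, from -0.67 to 0.56, were wider. Of 7 Kupffer cell markers, which stand beside Igfbp3 here, 5 were called higher in this comparison (Adgre1, Cd5l, Clec4f, Timd4 and Vsig4). Of all tested genes 1.43% were called higher. Marco (2.61) and Folr2 (1.42) were higher too, without a call. All 7 passed an unadjusted p under 0.05 with a fold above 2, against 2.1% of all tested genes. The study picked 4 of the 7 from these livers, so that the counts are not independent evidence. The count of calls was 1 without HFD mouse 2, 0 without HFD mouse 3 and 0 without PRF 50 mouse 3, and it was 2 without PRF 50 mouse 10. The median difference was 1.49 and stayed between 1.32 and 1.68 with a mouse left out. In HFD vs. ND 0 of the 7 Kupffer cell markers were called, with 0 at an unadjusted p under 0.05. In PRF 50 vs. ND 0 were called, with 7 at an unadjusted p under 0.05, against 12.5% of all tested genes. Without ND mouse 9, 2 were called higher there, and 1 without PRF 50 mouse 9. Of 7 sinusoidal endothelial and 7 stellate cell markers 0 were called in any of the 3 comparisons, with 2 endothelial markers in HFD vs. ND and 0 in the others at an unadjusted p under 0.05.

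The comparison of the PRF 50 group with the ND group asks whether livers given PRF on the high-fat diet differed from livers on the normal diet. Bcl6 was higher in PRF 50 mice 3 and 9 than in any ND mouse, and PRF 50 mouse 10 lay among the ND mice. Socs2 was below the ND range in PRF 50 mice 3 and 9 and inside it in mouse 10. Ghr, Stat5b, Igf1, Igfals and the binding protein genes had overlapping groups. Of the 9 tested genes 0 had an adjusted p under 0.05 (limma), against 0.458% of the 10051 genes tested. Bcl6 was the 1 gene with an unadjusted p under 0.05, against 12.5% of all tested genes, and the 1 gene that also passed a fold of 2, against 1.76%. Groups that did not overlap were found for 0 of the 9 genes and for 19.9% of all tested genes. The median difference was -0.03 both over the 9 genes and over all tested genes.

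Bcl6 differed by 1.86 (95% interval 0.37 to 3.35, SE 0.64, adjusted p = 0.292). Without PRF 50 mouse 10 the difference was 2.71, and Bcl6 passed the test (adjusted p = 0.00642). It was 1.25 without PRF 50 mouse 9 and 1.63 without PRF 50 mouse 3, with an unadjusted p of 0.0611 and 0.0622, and the unadjusted p was 0.0529 without ND mouse 9. The adjusted p over the left-out mice ran from 0.00642 to 0.569. Without PRF 50 mice 3 and 9 the difference was 0.16. Socs2 differed by -0.51 (95% interval -1.15 to 0.13, adjusted p = 0.488), by -0.83 without PRF 50 mouse 10 (adjusted p = 0.123), and by 0.13 without PRF 50 mice 3 and 9. Cish differed by -1.70 (SE 0.44, adjusted p = 0.171). Without PRF 50 mouse 10 it was -2.26 and passed the test (adjusted p = 0.00704), and without PRF 50 mice 3 and 9 it was -0.57.

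Igfbp2 differed from the ND group by -0.36 (95% interval -1.12 to 0.40, adjusted p = 0.678), and by 0.02 without ND mouse 6, the liver with the highest Igfbp2. The differences of Ghr, Igf1, Igfals, Igfbp1, Igfbp3 and Stat5b lay between -0.12 and 0.20. The 3 comparisons share mice, so their values are given side by side and not as separate support. Socs2 was at -1.17, 0.66 and -0.51 in HFD vs. ND, PRF 50 vs. HFD and PRF 50 vs. ND, Igfbp2 at -1.39, 1.03 and -0.36, and Bcl6 at 1.41, 0.45 and 1.86. Whether the response of a gene differed between comparisons was not tested.

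Genes with the most similar pattern to Bcl6 and Igfbp2, the genes with the largest SD over the 9 livers, were sought among 10047 genes by the root-mean-square difference of centred log2 values. For Bcl6 they were Steap4 at 0.63, Apcs at 0.64 and Saa4 at 0.66. Steap4, a metalloreductase gene, was at 4.83, 4.89 and 4.94 in the ND mice, at 5.41, 5.45 and 5.54 in the HFD mice and at 7.20, 6.76 and 5.22 in PRF 50 mice 3, 9 and 10. Its highest values were in PRF 50 mice 3 and 9. HFD mouse 3, whose Bcl6 at 3.78 was above that of PRF 50 mouse 3 at 3.72, came next for Steap4, at 5.54. That Steap4 value was close to those of HFD mice 1 and 2. HFD mouse 3 also came next for Saa4, at 7.79, and, level with HFD mouse 1, for Apcs, at 7.21. Steap4 and Apcs are genes of the acute-phase list, and Apcs and Saa4 encode plasma proteins of the pentraxin and serum amyloid families. For Igfbp2 they were Cyp1a2 at 0.30, Cyp2g1 at 0.33 and H2-Q9 at 0.35. Cyp1a2, a cytochrome P450 gene, was at 8.76, 8.46 and 7.87 in the ND mice, at 7.36, 6.41 and 7.11 in the HFD mice and at 8.05, 7.66 and 8.37 in the PRF 50 mice, with HFD mouse 2 lowest for both genes.

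Other genes of the axis were taken from lists. Of 16 genes of growth hormone receptor signaling, 14 were tested in HFD vs. ND, where Cish was called lower and 0 were called higher. In PRF 50 vs. HFD, with 2.16% of all tested genes called lower and 1.43% higher, Prlr, the prolactin receptor gene, was called lower and 0 of the 14 higher. Prlr was at 4.99, 5.52 and 5.53 in the HFD mice and at 4.42, 4.61 and 4.09 in PRF 50 mice 3, 9 and 10, with no overlap. It fell by 0.97 (SE 0.19, adjusted p = 0.0394). Its adjusted p was 0.129 and 0.133 without HFD mouse 2 or 3, 0.0991 and 0.0786 without PRF 50 mouse 3 or 10, and just above 0.05 without PRF 50 mouse 9. Socs3, a feedback inhibitor that IL-6 induces, was at 2.88 and 2.66 in PRF 50 mice 3 and 9 and 1.66 in mouse 10, and differed by 0.88 from the HFD group (adjusted p = 0.155). Without PRF 50 mouse 10 the Socs3 difference was 1.25 and passed the test (adjusted p = 0.0195), and without PRF 50 mice 3 and 9 it was 0.14 (adjusted p = 0.767). Of 16 genes of IGF ligands, receptors and carriers 7 were tested, and 0 were called in HFD vs. ND, with 1 at an unadjusted p under 0.05. Igfbp5, a further binding protein gene, was called in PRF 50 vs. HFD, but with a mean of 0.99 FPKM in the PRF 50 group it passed the minimum level only through the HFD group, so that the call is no support for a difference. Igfbp5 was at 1.78, 1.77 and 1.71 in the HFD mice and at 1.09, 1.17 and 0.68 in the PRF 50 mice, all below the HFD values. The difference was -0.78 (SE 0.15, adjusted p = 0.0371). Its adjusted p was 0.0793, 0.121 and 0.115 without HFD mouse 1, 2 or 3, and 0.0833 and 0.0517 without PRF 50 mouse 3 or 10.

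The list of 18 hepatocyte regulators that act with STAT5 had 0 genes called in HFD vs. ND, with a median of -0.11. An unadjusted p under 0.05 was reached by 10 of the 18, against 15.1% of all tested genes. Nr1i3, which encodes the xenobiotic receptor CAR, was called lower in PRF 50 vs. HFD (difference -0.93, SE 0.17, adjusted p = 0.0336). Its adjusted p was 0.0732 and 0.115 without HFD mouse 1 or 3, and 0.0951 and 0.076 without PRF 50 mouse 3 or 10. Without HFD mouse 1, 1 other gene of the list was called higher. Of these 3 lists 0 genes were called in PRF 50 vs. ND. An unadjusted p under 0.05 was reached there by 4, 0 and 6 genes, against 12.5% of all tested genes. Of 12 insulin- and fasting-responsive genes, Cpt1a alone was called in HFD vs. ND (0.60, adjusted p = 0.0483), and the call was lost with each mouse left out, at an adjusted p of 0.0958, 0.22 and 0.129 without HFD mouse 1, 2 or 3 and 0.0844, 0.203 and 0.0773 without ND mouse 6, 7 or 9. Pdk4, another gene of the list, which passed the minimum level only through the HFD group, was called higher without HFD mouse 1 (1.68, adjusted p = 0.0137). G6pc, the 1 gene of this list that the study picked from these livers, so that its call is not independent evidence, was alone called in PRF 50 vs. HFD (-2.19, adjusted p = 0.0321), and its adjusted p was 0.0687, 0.0783 and 0.103 without HFD mouse 1, 2 or 3 and 0.052 and 0.0625 without PRF 50 mouse 3 or 10, while 2 genes were called lower without PRF 50 mouse 9. Without HFD mouse 1, Pdk4 was called lower there (-1.63, adjusted p = 0.00533). In this comparison too Pdk4 passed the minimum level only through the HFD group and so had to be lower, so that the call is no support for a difference. Of 9 genes of this list tested in PRF 50 vs. ND, 0 were called, with 1 at an unadjusted p under 0.05.

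Genes that growth hormone pulses keep male-biased or female-biased in liver formed a further pair of lists. The study picked 9 of the 17 male-biased and 3 of the 22 female-biased genes from these livers, so the counts are not independent evidence. In HFD vs. ND, 0.631% of all tested genes were called lower and 0.702% higher. Of 16 tested male-biased genes, 9 were called lower and 0 higher in HFD vs. ND, with a median of -1.21. The count was 5 without HFD mouse 2 or ND mouse 7. Selenbp2, a selenium-binding protein gene (-2.34, adjusted p = 0.000854) and the complement gene C6 (-1.23, adjusted p = 0.00395) were called with any mouse left out. Of the 22 female-biased genes 12 were tested, and 6 were called higher and 1, Lifr, lower. Cyp2b13, Hao2 and Cyp2a4 passed the minimum level only through the HFD group and so had to be higher there, and Cyp2b13 and Hao2 are among the 6. Cyp2b10 passed it only through the ND group. The higher count was 3 without HFD mouse 3 or ND mouse 6 and 2 without ND mouse 7, the lower count was 0 without any of these or HFD mouse 2, and the cytochrome gene Cyp2b9 (5.52, adjusted p = 0.00419) was called with any mouse left out. In PRF 50 vs. HFD, 1.43% of all tested genes were called higher and 2.16% lower. Against the HFD group, 7 male-biased genes were called higher and 0 lower in the PRF 50 group, with a median of 1.32. Of 11 tested female-biased genes, 7 were called lower and 0 higher. Cyp2b13, Hao2 and Cyp2a4 again passed the minimum only through the HFD group, and Cyp2b13 and Hao2 are among the 7. Prlr, already counted among the genes of growth hormone receptor signaling, is also among the 7. The male-biased count was 3 without HFD mouse 2 or PRF 50 mouse 3, 2 without HFD mouse 3 and 4 without PRF 50 mice 3 and 9. The female-biased count was 3 without HFD mouse 2 or PRF 50 mouse 3 or 10, 4 without HFD mouse 3 or PRF 50 mouse 9, and 3 without PRF 50 mice 3 and 9. C6 (1.99, adjusted p = 0.000293) and Cyp2b9 (-6.00, adjusted p = 0.000458) were again called with any mouse left out. PRF 50 mouse 10 had C6 at 6.45, against 4.32 to 4.61 in the HFD mice. Its Cyp2b9 was at 0.55, against 6.57 to 7.41 in the HFD mice. In PRF 50 vs. ND, with 0.159% of all tested genes called higher and 0.298% lower, C6 was called higher (0.77, adjusted p = 0.0269), Cyp4a12b lower (-2.28, adjusted p = 0.0441) and 0 of 9 tested female-biased genes were called, with 3 at an unadjusted p under 0.05, Acot3, Acot4 and Cyp2b10. Cyp2b10 passed the minimum only through the ND group and so had to be lower here, and of the 3 Acot3 (adjusted p = 0.0414) and Cyp2b10 were called lower without ND mouse 9. The adjusted p of C6 was 0.0778 and 0.142 without ND mouse 6 or 7, and 0.136, 0.0778 and 0.0514 without PRF 50 mouse 3, 9 or 10. That of Cyp4a12b was 0.0747 and 0.0579 without ND mouse 7 or 9, and 0.137 and 0.108 without PRF 50 mouse 3 or 9.

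The acute-phase and IL-6 response list, of which the study picked 9 of 20 genes from these livers, had 3 genes called higher in HFD vs. ND, Lcn2, Steap4 and Il1rn, of which Il1rn passed the minimum level only through the HFD group and so had to be higher there. The count was 1 without HFD mouse 2 or ND mouse 7 and 0 without any other mouse. Of its 20 genes 5 reached an unadjusted p under 0.05 in PRF 50 vs. HFD, against 20.2% of all tested genes. Of the 20, 0 were called there, with a median of 0.81, and 8 were called higher without PRF 50 mouse 10. The count of calls was also 0 in PRF 50 vs. ND, and 6 were called higher without PRF 50 mouse 10. An unadjusted p under 0.05 was reached there by 7, against 12.5% of all tested genes. Among the 7 was Il1rn, which passed the minimum level only through the PRF 50 group. Without PRF 50 mice 3 and 9 the median in PRF 50 vs. HFD was -0.27. The livers with high acute-phase transcripts, PRF 50 mice 3 and 9, were those with high Bcl6 and low Socs2, Cish and Onecut1 in that group. HFD mouse 3, with Bcl6 at 3.78, Cish at 1.14 and Onecut1 at 2.25, had the lowest acute-phase sum of the 9 livers, 11122 FPKM. Single genes of the list went both ways there. Its Lcn2 at 4.54, Steap4 at 5.54 and Saa1 at 7.68 were above those of all 3 ND livers. Its Orm1 at 9.34, Fga at 9.85, Fgb at 10.98 and Fgg at 10.67 were below those of all 3 ND livers. HFD mouse 1 had higher Lcn2, at 4.92, and Saa1, at 8.43, with Bcl6 at 2.46.

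**Figure D5:**
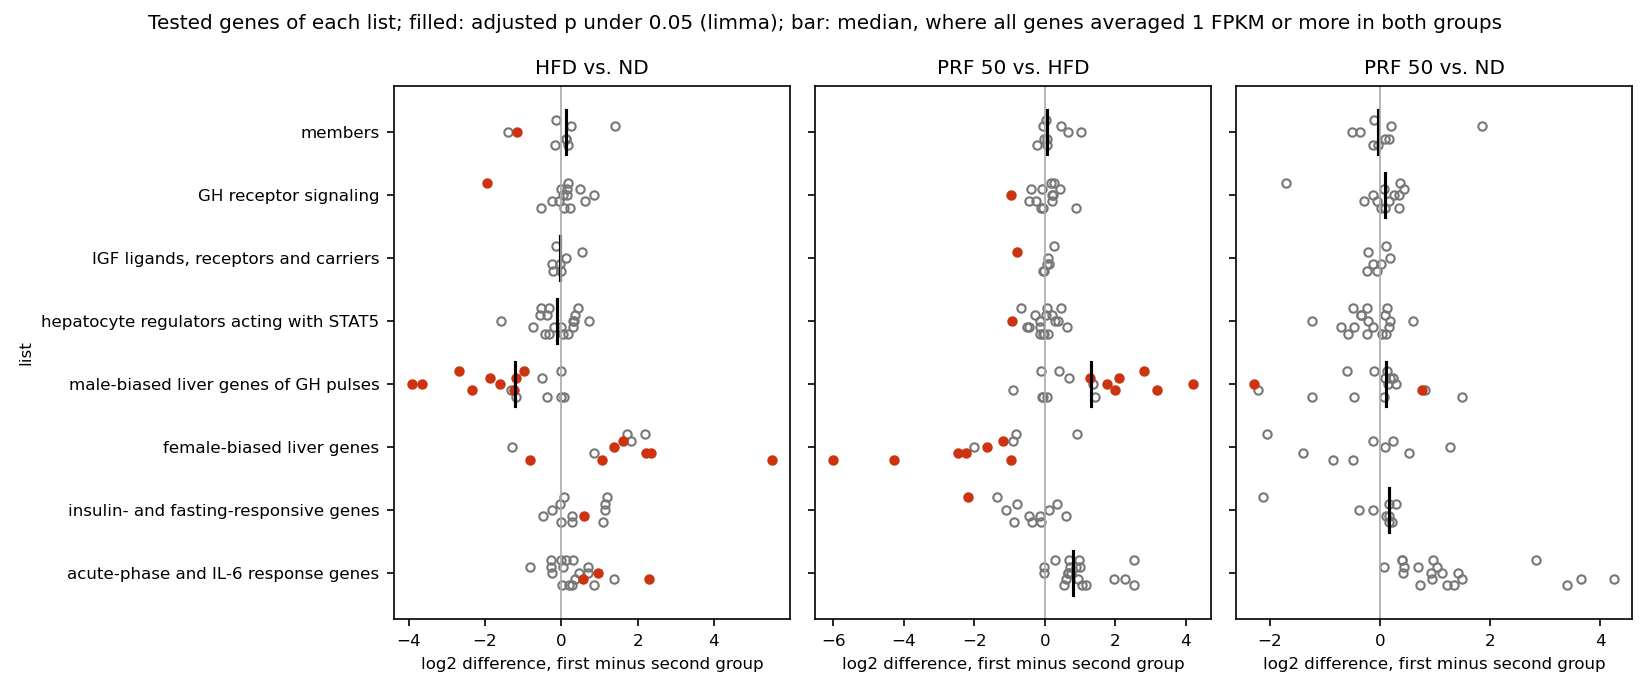
Difference in log2(FPKM + 1) between groups (horizontal axis, first group minus second) of every tested gene of the 10 genes and of 7 lists (vertical axis) in the 3 comparisons; circles are genes, filled at an adjusted p under 0.05 (limma), and the bar is the list's median, drawn where each tested gene averaged at least 1 FPKM in both groups. The median of the male-biased genes is -1.21 in HFD vs. ND and 1.32 in PRF 50 vs. HFD, and that of the 10 genes, of which 9 were tested, is 0.11 and 0.05.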

How the data were processed

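Read trimming by the authors used FASTX_Trimmer and BBMap, and the submitters' processing notes name TopHat and mm10. FPKM came from Cufflinks, and geometric normalization was, as the authors state, done with EdgeR. Versions and the gene annotation are not given in the sources used here. The deposited values are log2 of FPKM plus a constant, taken as a pseudocount of 1 since the lowest value is exactly 0. Each pair of groups (6 mice) was fitted with limma 3.58.1 in R 4.3.3 (lmFit, eBayes with a trend) over genes averaging at least 1 FPKM, with Benjamini-Hochberg adjustment over all tested genes and a call at an adjusted p under 0.05. The fits were tested on simulated data. Shares of the Igfbp family were compared by an exact permutation test. Alternatives were all 9 mice in 1 fit, each mouse left out, quantile normalization, a pseudocount of 0.1, a minimum of 10 FPKM or none, no variance trend and, added after seeing the data, leaving out PRF 50 mice 3 and 9. The genes and lists were chosen with earlier results of these data known. All 10 genes were named, as were Jak2, Stat5a, Cish, Socs3, Prlr, Igf2, Igf1r, Igfbp4 and Igfbp7, the up to 3 genes of each list with the smallest p in PRF 50 vs. HFD and in HFD vs. ND, of which the text gives the main ones, and the 3 nearest genes in pattern to the 2 genes with the largest SD. Other named list genes were chosen after their values were seen. Gene positions are from the GRCm38 annotation and promoters from RefSeq. Mice were grouped by the labels and each was 1 replicate.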

Additional observations from a re-analysis of the deposited data

How the results depend on the processing

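Of the 27 differences of single genes, 12 kept their sign under every alternative tried, and over 330 alternative values 294 kept both sign and side of the threshold. Socs2 in HFD vs. ND kept its sign throughout, between -1.32 and -1.02 with a mouse left out, but the count of genes at an adjusted p under 0.05 went from 1 to 0 with all 9 mice in 1 fit, with no minimum level, and at a minimum of 10 FPKM, where Socs2, Bcl6, Stat5b and Igfbp3 were not tested, and it was 0 to 0 with a mouse left out. For PRF 50 vs. ND that count was 0 to 1 with a mouse left out. The count past an unadjusted p under 0.05 and a fold above 2 was 1 in place of 3 in HFD vs. ND at a minimum of 10 FPKM, and 2 with all 9 mice in 1 fit or without HFD mouse 3, where Bcl6 no longer passed. For PRF 50 vs. HFD it was 0 to 1 with a mouse left out and 2 without PRF 50 mice 3 and 9. For PRF 50 vs. ND it was 0 at a minimum of 10 FPKM, 0 to 1 with a mouse left out and 0 without PRF 50 mice 3 and 9. Signs turned with a mouse left out for these genes, given as lowest and highest difference. In HFD vs. ND they were Igfbp1 (-0.21 and 0.49), Igfbp3 (-0.05 and 0.48) and Stat5b (-0.01 and 0.22). In PRF 50 vs. HFD they were Igf1 (-0.12 and 0.11), Igfbp1 (-0.42 and 0.37), Igfbp3 (-0.29 and 0.25), Stat5b (-0.08 and 0.02) and Bcl6 (-0.17 and 1.30). In PRF 50 vs. ND they were Ghr (-0.09 and 0.02), Igfals (-0.27 and 0.01), Igfbp1 (-0.31 and 0.54), Igfbp2 (-0.56 and 0.02) and Stat5b (-0.04 and 0.18). Ghr in PRF 50 vs. ND was also 0.07 with quantile normalization. Without PRF 50 mice 3 and 9, an alternative chosen after seeing the data in which the lone PRF 50 mouse 10 is assumed to vary like the other groups, Igfbp1 was -0.51, Igfbp3 0.16 and Bcl6 -1.25 against the HFD group, and Ghr was 0.07, Igf1 0.18, Igfbp1 -0.40 and Socs2 0.13 against the ND group. Where fewer mice or genes do not show it, the cause was not tested. Over all genes, calls higher and lower were 22 and 15 in place of 70 and 63 in HFD vs. ND with no minimum level, 38 and 88 in place of 144 and 218 in PRF 50 vs. HFD, and 2 and 9 in place of 16 and 30 in PRF 50 vs. ND. With all 9 mice in 1 fit they were 53 and 54 in PRF 50 vs. ND. At a minimum of 10 FPKM they were 46 and 43, 49 and 203, and 8 and 37 in the order given, and with quantile normalization 112 and 132 in PRF 50 vs. HFD. With a mouse left out they ran from 17 to 80 and 17 to 60 in HFD vs. ND, from 4 to 94 and 11 to 148 in PRF 50 vs. HFD, and from 1 to 39 and 3 to 36 in PRF 50 vs. ND. Without PRF 50 mice 3 and 9 they were 9 and 22 against the HFD group and 3 and 7 against the ND group. No paired analysis was possible because mouse numbers name animals within a group, with number 3 shared by the HFD and PRF 50 groups only and number 9 by the ND and PRF 50 groups only. The depth of the libraries is not stated in the files, so counting error at low levels such as those of Cux2 could not be separated from differences between mice.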
